A study of Homo sapiens with 8 samples.

Results

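The subject is the RNA encoded by the human mitochondrial genome in skin fibroblasts treated with celastrol, with TGFB1, or with both. The genes were chosen by position and name: every row of the deposited expression table on chromosome M whose symbol starts with MT-. That gave 15 of 24598 rows, comprising 13 mRNAs and 2 ribosomal RNAs. GENCODE release 29 lists 37 genes on chromosome M of GRCh38, and its start, end and strand matched the table for 15 of 15 rows. The 22 transfer RNA genes of that annotation have no row in the table used here, so RNA of that class was not analysed.

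Cells were CCD-1077Sk, a line of fibroblasts from normal human skin, beyond passage 8 and grown in medium with 10% fetal bovine serum. All groups were collected after 6 h, and each had 2 libraries. The control received the carriers only (BSA, citric acid and DMSO). The TGFB1 group received transforming growth factor beta 1, a cytokine that activates fibroblasts, with DMSO. The celastrol group received celastrol, a triterpenoid from Tripterygium root extracts, at 500 nM with BSA and citric acid. The last group received TGFB1 and celastrol at 500 nM together. No label states how much TGFB1 was added, and 1 cell line limits what the groups can model. Nothing in the labels ties the libraries of a group to cultures grown apart. The p-values therefore speak of the spread from library to library, and part of it may be technical.

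Mitochondrial DNA is a small circular genome transcribed by its own polymerase, POLRMT, into long precursors that run along each strand. The precursor named for the heavy strand carries both rRNAs and nearly all mRNAs, while that of the light strand carries MT-ND6 and several tRNAs. Transfer RNAs lie between most of the coding genes, and their excision releases mature mRNAs, most of which are then polyadenylated. The mRNAs encode subunits of respiratory complexes I, III, IV and V, which assemble with many more subunits encoded in the nucleus.

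The libraries held 20716706 to 42518350 estimated reads, and the values below are normalized reads, meaning estimated reads divided by a factor for each library and not by gene length. Behind a single value stood 33 to 155113 estimated reads for an mRNA and 109 to 2763 for an rRNA. All 10 fibroblast markers checked, such as COL1A1, COL3A1 and DCN, were present, with sums of 381770 to 674410 normalized reads per library. Of 19 markers of other skin cells (keratinocytes, melanocytes, endothelium and immune cells), 9 had no row, KRT5, KRT14, CDH5, TYR and CD3E among them. KRT10, the only keratinocyte marker with a row, had 879.2 to 1059.3 normalized reads without celastrol and 872.7 to 1056.1 with it. The endothelial markers with a row summed to 52.7 to 98.9 normalized reads in the libraries without celastrol and to 354.4 to 464.8 in those with it. The melanocyte markers with a row went from between 8.76 and 14.1 to between 95.7 and 133.7, and those of immune cells from between 11.3 and 22.2 to between 63.0 and 92.4. The part of these markers in the results below was not tested.

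Several mitochondrial genes touch or share bases, and this bears on which reads can belong to which gene. At 3 places the annotation makes neighbours overlap, shown here on the strand of the RNA with the bases that both genes own in capitals. They cover 46 bases of MT-ATP8 and MT-ATP6 (chrM:8507-8592), 1 base of MT-ATP6 and MT-CO3 (chrM:9167-9247) and 7 bases of MT-ND4L and MT-ND4 (chrM:10730-10796), all on the + strand of GRCh38.
MT-ATP8/MT-ATP6: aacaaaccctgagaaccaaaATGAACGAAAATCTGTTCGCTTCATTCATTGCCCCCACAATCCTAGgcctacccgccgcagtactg
MT-ATP6/MT-CO3: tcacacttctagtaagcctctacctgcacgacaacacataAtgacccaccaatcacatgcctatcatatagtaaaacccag
MT-ND4L/MT-ND4: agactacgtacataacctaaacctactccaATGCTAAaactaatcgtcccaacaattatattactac
No tRNA gene lies at any of these 3 junctions, nor between MT-ND5 and MT-ND6, which abut on opposite strands. At the other 10 junctions 1 to 5 tRNA genes separate the neighbours.

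MT-ND6 also differs from the other genes in base composition, since its RNA is read from the opposite strand. The first 180 bases of its RNA (chrM:14494-14673, - strand) and of MT-ND5 (chrM:12337-12516, + strand) show this contrast, with runs of 3 or more G in capitals.
MT-ND6: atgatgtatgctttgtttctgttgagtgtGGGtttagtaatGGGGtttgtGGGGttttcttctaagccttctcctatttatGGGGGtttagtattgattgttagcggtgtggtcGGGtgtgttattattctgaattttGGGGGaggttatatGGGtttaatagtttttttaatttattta
MT-ND5: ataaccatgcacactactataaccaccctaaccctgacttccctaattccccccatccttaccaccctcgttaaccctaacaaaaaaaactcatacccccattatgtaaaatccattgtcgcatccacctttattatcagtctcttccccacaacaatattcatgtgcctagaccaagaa
G made up 35.6% of the 525 bases of MT-ND6 and C 7.05%, against 10.6% and 34.3% of the 1812 bases of MT-ND5. MT-ND6 held 19 such runs, or 36.2 per 1000 bases, whereas the other 14 genes held from 0 to 6.38 per 1000.

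Every mitochondrial mRNA fell with celastrol, whether or not TGFB1 was present. All 13 mRNAs were called lower and neither rRNA passed the test, both with celastrol alone (celastrol against control) and with celastrol on top of TGFB1 (TGFB1 with celastrol against TGFB1). Over all genes tested, 21.3% were called lower with celastrol alone and 25.9% with celastrol on top of TGFB1, at a limma adjusted p under 0.05. The median log2 change of the 13 mRNAs was -2.19 with celastrol alone and -2.17 on top of TGFB1, beside 0.08 and 0.12 over the 22866 genes tested. Each mRNA was lower in all 4 libraries with celastrol than in any of the 4 without, an arrangement seen in 23% of all genes tested. In bulk RNA, fewer cells of a type and less RNA per cell cannot be told apart. The size of the fall differed from gene to gene, from less than 1 log2 unit for MT-ND5 to more than 4 for MT-CO3.

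**Figure D1:**
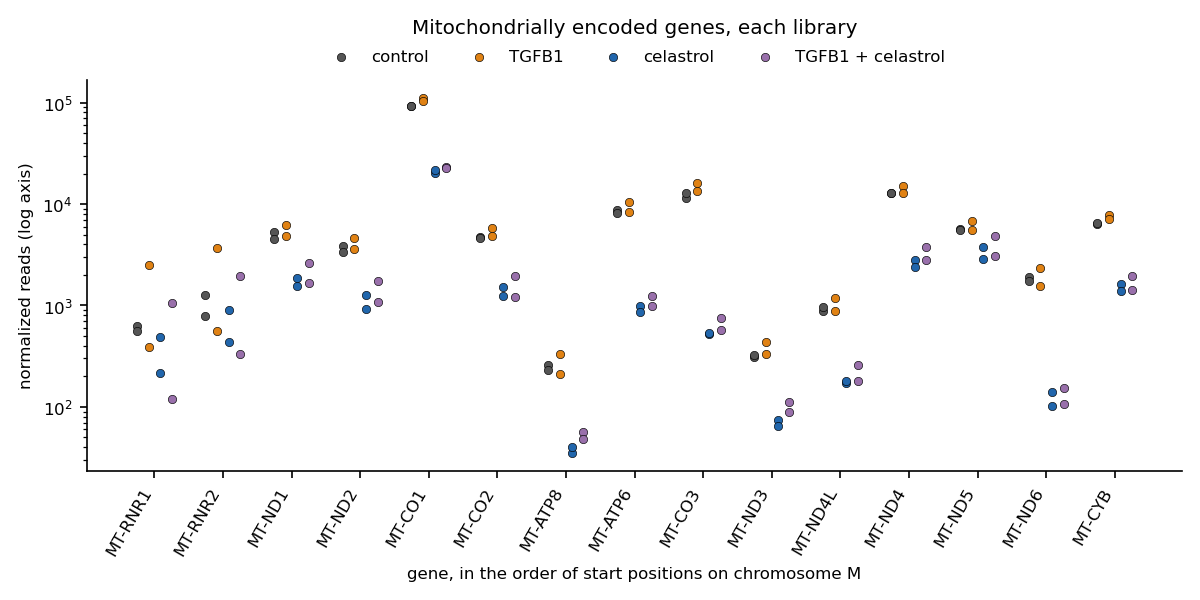
Normalized reads (log axis) of the 15 mitochondrially encoded genes in each of the 8 libraries, 1 point per library and 2 libraries per group, coloured by group. For the 13 mRNAs the celastrol libraries lie below all libraries without celastrol, while the points of MT-RNR1 and MT-RNR2 overlap between groups.

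MT-CO3, subunit III of cytochrome c oxidase (complex IV, chrM:9207-9990), fell most. It had 11604 and 12749 normalized reads in the control libraries and 15977 and 13319 with TGFB1. The values were 528.7 and 536.5 with celastrol and 752.2 and 567.9 with both agents. The replicates of a group lay close together and the groups with celastrol were far below the others. The log2 change was -4.51 (SE 0.13) with celastrol alone and -4.48 (SE 0.13) on top of TGFB1, with limma adjusted p-values of 1.52e-07 and 1.42e-07. Only 11 and 14 of the 22866 genes tested, MT-CO3 included, had a change as low as that or lower in these comparisons.

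The other complex IV subunits encoded in the mitochondrion fell less. MT-CO1 (chrM:5904-7445), the catalytic subunit, was the most abundant mRNA per base, with 93757 and 93041 normalized reads in control and 110930 and 103030 with TGFB1. It dropped to 20262 and 21517 with celastrol and to 23176 and 22432 with both. Within a group these values differed by little, and MT-CO1 had the smallest standard error of the mRNAs, 0.07. Its log2 change was -2.16 with celastrol alone and -2.23 on top of TGFB1 (limma adjusted p = 1.92e-07 and 1.51e-07). MT-CO2 (chrM:7586-8269), which takes electrons from cytochrome c, went from 4718 and 4646 in control to 1513 and 1229 with celastrol, and from 5840 and 4878 with TGFB1 to 1973 and 1200 with both. That is a log2 change of -1.78 (SE 0.21) with celastrol alone and -1.79 (SE 0.21) on top of TGFB1 (limma adjusted p = 0.00013 and 9.27e-05). The 3 complex IV genes thus showed unequal falls, and the gene directly before MT-CO3 came closer to it than either MT-CO1 or MT-CO2.

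That gene is MT-ATP6 (chrM:8527-9207), which encodes the proton channel subunit of ATP synthase, complex V. MT-ATP6 had 8777 and 8097 normalized reads in control, 10476 and 8329 under TGFB1, 979.6 and 859.8 under celastrol and 1227 and 982.3 with both. Its log2 change was -3.20 (SE 0.13) with celastrol alone and -3.09 (SE 0.13) on top of TGFB1, with limma adjusted p-values of 6.84e-07 and 6.97e-07. MT-ATP8 (chrM:8366-8572), the small companion subunit that shares 46 bases with MT-ATP6, had 260.1 and 233.3 in control, 329.1 and 208.9 under TGFB1, 34.78 and 39.97 under celastrol and 56.1 and 48.4 with both. It rested on the fewest reads of the mRNAs, 33 to 389 per library. Its log2 change was -2.69 (SE 0.23) and -2.31 (SE 0.23) in the same order (limma adjusted p = 2.77e-05 and 4.62e-05). In the order MT-CO2, MT-ATP8, MT-ATP6, MT-CO3 each gene fell further than the one before it in both comparisons. The next gene, MT-ND3, returned to a smaller fall. The differences between neighbours were not tested. MT-ATP8 and MT-ATP6 share bases and no tRNA gene lies between them, so they need not be separate RNAs. Reads in the 46 shared bases can belong to either gene. The values of MT-ATP6 were fractions of a read in 7 of 7 libraries that could be checked.

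**Figure D2:**
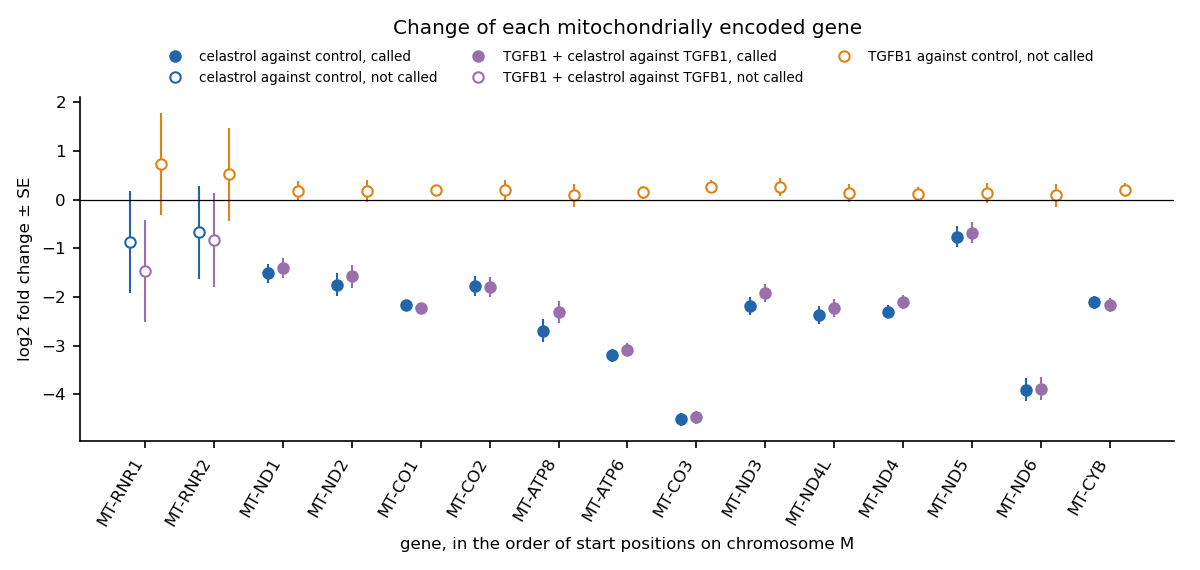
Log2 fold change of each mitochondrially encoded gene, in the order of start positions on chromosome M, with bars of 1 standard error from the limma fit to 8 libraries. Filled points passed an adjusted p of 0.05 and open points did not. Changes with celastrol reach from -0.76 at MT-ND5 to -4.51 at MT-CO3 among the mRNAs, and those with TGFB1 lie near 0.

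MT-ND6 (chrM:14149-14673), the only mRNA of the light strand, encodes a membrane subunit of complex I, the NADH dehydrogenase. It had 1902 and 1726 normalized reads in control and 2364 and 1562 with TGFB1. With celastrol it had 140.6 and 101.6, and with both agents 154.2 and 107.8. The 4 celastrol libraries formed a low group with no overlap. The log2 change was -3.91 (SE 0.24) with celastrol alone and -3.89 (SE 0.24) on top of TGFB1, with limma adjusted p-values of 4.27e-06 and 3.27e-06.

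MT-ND5 (chrM:12337-14148), also a membrane subunit of complex I and the neighbour of MT-ND6 on the other strand, fell least. It had 5653 and 5562 normalized reads in control, 6878 and 5557 under TGFB1, 3795 and 2897 under celastrol and 4892 and 3050 with both. The 4 libraries with celastrol stayed below the other 4, but by less than for any other mRNA in relation to its level. The log2 change was -0.76 (SE 0.21) with celastrol alone and -0.68 (SE 0.21) on top of TGFB1, with limma adjusted p-values of 0.0146 and 0.0206. With celastrol alone, MT-ND5 missed the threshold when control replicate 1 (limma adjusted p = 0.0594), control replicate 2 (0.0528) or celastrol replicate 2 (log2 change -0.56, adjusted p = 0.131) was left out, and with no variance trend (0.0637). On top of TGFB1 it was lost without TGFB1 replicate 1 (adjusted p = 0.111) or the second library with both agents (log2 change -0.34, adjusted p = 0.162), with 2 scalings to a common total (0.0612 and 0.0588), with no variance trend (0.0755) and with only the 4 libraries compared (0.051). Without the first library with both agents it was -1.02. MT-ND6 and MT-ND5 therefore stood at opposite ends of the complex I genes, although they abut on the genome.

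The remaining 5 complex I genes lay between these ends, with changes of -1.40 to -2.38. MT-ND1 (chrM:3307-4262), the first mRNA after the rRNAs, had 5273 and 4541 normalized reads in control, 6284 and 4857 under TGFB1, 1874 and 1558 under celastrol and 2610 and 1672 with both. Its log2 change was -1.52 (SE 0.21) with celastrol alone and -1.40 (SE 0.21) on top of TGFB1. MT-ND2 (chrM:4470-5511) followed at -1.75 and -1.58 (SE 0.23). Both are membrane subunits of complex I. MT-ND4 (chrM:10760-12137), the most abundant mRNA of that complex per base, had 12864 and 12885 in control, 15231 and 12885 under TGFB1, 2819 and 2421 under celastrol and 3791 and 2809 with both. Its log2 change was -2.30 (SE 0.14) and -2.10 (SE 0.14), next to -2.38 and -2.23 (SE 0.19) for MT-ND4L (chrM:10470-10766), with which it is made as 1 bicistronic mRNA. MT-ND3 (chrM:10059-10404) showed -2.19 and -1.92 (SE 0.19). The limma adjusted p-values of these 5 genes lay between 4.32e-06 and 0.000396.

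MT-CYB (chrM:14747-15887), cytochrome b, is the only complex III subunit of this genome. It had 6378 and 6545 normalized reads in control, 7785 and 7072 under TGFB1, 1612 and 1379 under celastrol and 1934 and 1414 with both. Its log2 change was -2.11 (SE 0.14) with celastrol alone and -2.17 (SE 0.14) on top of TGFB1 (limma adjusted p = 5.65e-06 and 3.87e-06), close to that of MT-CO1. Apart from MT-ND5, the other 12 mRNAs kept their direction and their call in all 19 alternatives run for each of the celastrol comparisons.

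The rRNAs, MT-RNR1 (chrM:648-1601, the small subunit) and MT-RNR2 (chrM:1671-3229, the large subunit), scattered widely between replicates. MT-RNR1 had 631.6 and 555.4 normalized reads in control, 2523 and 385.9 under TGFB1, 215.7 and 483.2 under celastrol and 1063 and 120 with both. MT-RNR2 had 1274 and 783.4 in control, then 3705 and 554.3 under TGFB1, 436.0 and 899.8 under celastrol, and 1937 and 332.4 under both. In both genes the first TGFB1 library and the first library with both agents were far above their partners, and the groups overlapped. The log2 change of MT-RNR1 was -0.87 with celastrol alone and -1.46 on top of TGFB1 (SE 1.05), with limma adjusted p-values of 0.514 and 0.254. MT-RNR2 showed -0.67 and -0.84 (SE 0.96), with adjusted p-values of 0.586 and 0.472. On top of TGFB1, leaving out 1 library moved these values across 0: MT-RNR1 was at 0.11 without the second library with both agents, but at -3.03, with a limma adjusted p of 0.0469, without the first. With celastrol alone they stayed below 0, between -1.45 and -0.29 for MT-RNR1 and between -1.20 and -0.15 for MT-RNR2. In these libraries the rRNAs were also rare per base, at 0.62 and 0.66 normalized reads per base in control against 60.6 for MT-CO1. These values describe reads in the libraries and cannot be taken as the amount of rRNA in the cells. With standard errors of 1.05 and 0.96, the lack of a call does not show that the rRNAs were unchanged. The labels' protocols do not say what became of ribosomal RNA in library preparation.

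Seen as a whole, chromosome M took a small share of each library and lost most of it with celastrol. The 15 genes held 0.611% ± 0.00141 (SD, n = 2) of normalized reads in control, 0.603% ± 0.0686 with TGFB1, 0.130% ± 0.00283 with celastrol and 0.152% ± 0.0247 with both. No library with celastrol exceeded 0.169%, and none without it was under 0.554%. The rRNAs contributed 0.00168% to 0.0208% of a library, so nearly all of this share was mRNA.

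**Figure D3:**
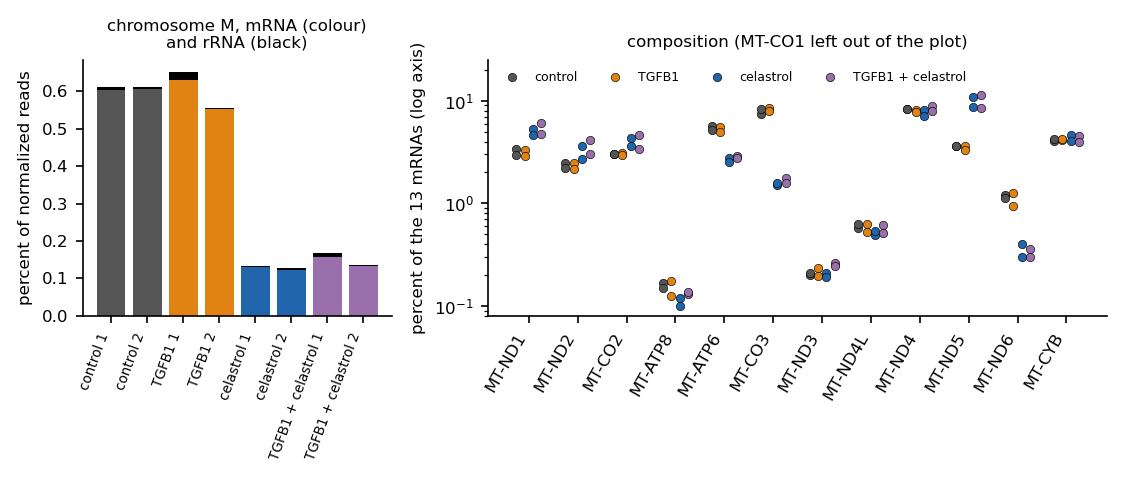
Left, percent of all normalized reads on chromosome M in each library, as bars from 0 with mRNA in colour and rRNA in black: 0.554% to 0.651% without celastrol and 0.128% to 0.169% with it. Right, percent of the summed normalized reads of the 13 mRNAs held by each gene (log axis), 1 point per library, in which MT-CO3, MT-ATP6 and MT-ND6 lose and MT-ND5, MT-ND1 and MT-ND2 gain share with celastrol.

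The composition of the mitochondrial mRNA pool moved with celastrol while its main part stayed in place. MT-CO1 held 58.9% to 61.9% of the mRNA reads in the libraries without celastrol and 54.3% to 63.8% in those with it. The share of MT-CO3 went from between 7.43% and 8.48% to between 1.51% and 1.76%, and that of MT-ND6 from between 0.938% and 1.26% to between 0.301% and 0.401%. MT-ATP6 went from between 5.0% and 5.62% to between 2.55% and 2.87%. MT-ND5 moved the other way, from between 3.34% and 3.65% to between 8.56% and 11.5%. Because these are shares of a smaller pool, a gain in share came with a fall in normalized reads. The shares of MT-ND4 and MT-CYB overlapped between libraries with and without celastrol.

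Per base, the order of levels changed as well. In control MT-CO1 led with 60.6 normalized reads per base, followed by MT-CO3 with 15.5, MT-ATP6 with 12.4 and MT-ND4 with 9.34, while MT-ND5 had 3.09. With celastrol MT-CO1 still led at 13.5 per base, but MT-CO2 came next at 2.00, MT-ND4 at 1.90 and MT-ND5 at 1.85, and MT-CO3 stood at 0.679. The libraries of MT-CO2 (2.21 and 1.80), MT-ND4 (2.05 and 1.76), MT-ND5 (2.09 and 1.60) and MT-ND1 (1.96 and 1.63) overlapped with celastrol, so their order there is within the spread. In control those of MT-CO3 (14.8 and 16.3) lay above those of MT-ATP6 (12.9 and 11.9).

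Ratios within a library do not depend on how libraries are scaled. They can still depend on how reads that also match nuclear copies of these genes, described below, were assigned. The ratios given here were chosen with the values known and are a description, without a test. The ratio of MT-CO3 to MT-CO1 was 0.124 and 0.137 in control, 0.144 and 0.129 under TGFB1, 0.0261 and 0.0249 under celastrol and 0.0325 and 0.0253 with both. MT-CO3 had 1.32 to 1.60 times the reads of its neighbour MT-ATP6 in the libraries without celastrol and 0.540 to 0.624 times with it. Thus the order of these adjoining genes reversed. The ratio of MT-ND6 to MT-ND5 was 0.281 to 0.344 without celastrol and 0.0315 to 0.0371 with it. The ratio of MT-ND5 to MT-CO1 rose from between 0.0539 and 0.0620 to between 0.135 and 0.211. In each of these 4 ratios the libraries with and without celastrol did not overlap. Those of MT-ND4 to MT-CO1 (0.125 to 0.138 without and 0.113 to 0.164 with celastrol) and of MT-CYB to MT-CO1 (0.0680 to 0.0703 and 0.0630 to 0.0834) did overlap.

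**Figure D4:**
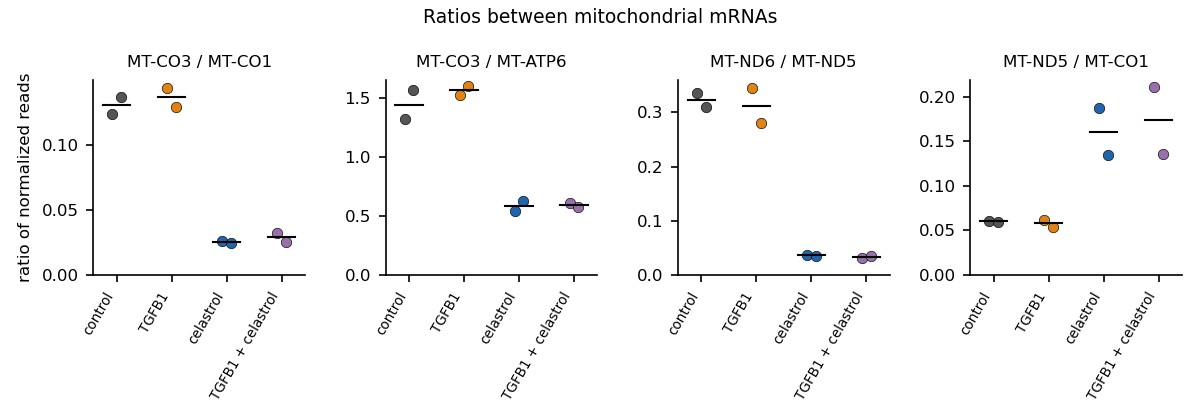
Ratios of normalized reads between pairs of mitochondrial mRNAs, with axes from 0, 1 point per library and a line at the mean of each group of 2. MT-CO3 to MT-CO1, MT-CO3 to MT-ATP6 and MT-ND6 to MT-ND5 are lower in the 4 libraries with celastrol, and MT-ND5 to MT-CO1 is higher there.

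No mitochondrial transcript was called with TGFB1 alone. None of the 15 genes passed the limma test at an adjusted p of 0.05, where 23.5% of all genes did, and 1 had an unadjusted p under 0.05. That gene was MT-CO1, with a log2 change of 0.20 (SE 0.07, adjusted p = 0.0696). Changes of the 13 mRNAs ran from 0.09 for MT-ND6 to 0.26 for MT-CO3 and MT-ND3. Their direction rests on scaling: with every library brought to a common total, 2 of the 13 were above 0 and the values ran from -0.14 to 0.04. It rests on 1 library too: without TGFB1 replicate 1, 7 of the 13 were above 0 and the values ran from -0.24 to 0.14. With the replicate block, with libraries centred at their median, or without TGFB1 replicate 2, MT-CO1 passed the test, at limma adjusted p-values of 0.0282, 0.0126 and 0.0376.

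In the presence of celastrol, TGFB1 again gave no call among the 15 genes (TGFB1 with celastrol against celastrol). Only 0.00875% of all genes were called in that comparison. Log2 changes of the mRNAs ran from 0.11 for MT-ND6 to 0.52 for MT-ND3, and 2 genes, MT-ND3 and MT-ND4, had an unadjusted limma p under 0.05 (0.0225 and 0.0499). Their common direction rests on 1 library: without the first library with both agents, 7 of the 13 mRNAs were above 0. The values then ran from -0.18 to 0.37. MT-ND3 had 74.2 and 64.2 normalized reads with celastrol and 112.9 and 88.0 with both agents. MT-ND4, at 2819 and 2421 against 3791 and 2809, overlapped between the groups. The interaction, which asks whether the celastrol change depends on TGFB1, gave no call among the 15 and no unadjusted limma p under 0.05, while 11.3% of all genes were called. For the mRNAs it lay between -0.07 (SE 0.10) at MT-CO1 and 0.38 (SE 0.33) at MT-ATP8. These errors leave differences of the size of the estimates undecided.

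The nuclear genome carries degenerate copies of mitochondrial genes, and reads from a close copy can be assigned to either. Parts of 50 bases that also occur in annotated nuclear transcripts made up 49.5% of MT-CO1, 46.7% of MT-ATP6, 43.6% of MT-ND2, 30.6% of MT-CO3, 29% of MT-CO2, 22.1% of MT-ND1 and 17.9% of MT-ND6. They made up 14% of MT-RNR2, 8.23% of MT-ATP8, 4.76% of MT-ND5, 3.54% of MT-ND4, 1.19% of MT-CYB and none of MT-ND3, MT-ND4L or MT-RNR1. Values of MT-ATP6 (7 of 7 libraries that could be checked) and MT-ND6 (8 of 8) were fractions of a read, as were 7 of 8 for MT-ND2, 6 of 8 for MT-CO2, 3 of 8 for MT-ND1 and 2 of 4 for MT-ND4. Those of MT-CO1 could not be checked in any library. Those of MT-ND5, MT-CYB, MT-ATP8, MT-ND3, MT-ND4L, MT-RNR1 and MT-RNR2 were whole reads in 8 of 8, and those of MT-CO3 in 4 of 4. The levels of the genes with fractional values are uncertain to the extent that reads were split. The mRNAs with 4.76% or less in shared parts were MT-ND3, MT-ND4L, MT-CYB, MT-ND4 and MT-ND5. They changed by -2.19, -2.38, -2.11, -2.30 and -0.76 on the log2 scale with celastrol alone.

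The table held 35 nuclear copies of mitochondrial genes, and 30 passed the filter on low values. With celastrol on top of TGFB1, 10 fell and 13 rose, against 25.9% lower and 37.5% higher over all genes. Those that fell were 75.5% to 98.7% identical to the mitochondrial gene, those that rose 70.8% to 80.0%, and the 7 without a call 69.8% to 74.9%. Of those that fell, MTCO1P11, MTND1P11, MTND4P14 and MTND6P5 lie inside the coding gene JAK2, and MTCYBP3 and MTND5P2 inside DNAJC3. These are 75.5% to 79.1% identical, and whether their reads came from the coding gene around them was not tested. All 13 that rose were under 10 normalized reads in every library without celastrol, and 6 of them were at 0 in all 4. They passed the filter only through the libraries where they were high, which fixed their direction, so their count is a description and no support. The same holds for part of those that fell. MTCO1P11, MTCO3P39, MTND4P14 and MTND6P5 stayed under 10 in every library with celastrol. MTND1P11 exceeded 10 there only in the first library with both agents (11.9). These copies passed only through the libraries without celastrol, so their fall is a description as well. The 3 copies with an identity of 98.4% or more lie together on chromosome 1 and fell, as their mitochondrial counterparts did.

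Sequence shows how far 2 such copies of MT-CO1 can be told from it. The same 120 bases are given for MT-CO1 (chrM:6527-6646, + strand), for MTCO1P12 (chr1:631697-631816, + strand) and for MTCO1P24 (chr5:98411042-98411161, - strand), with bases that differ from MT-CO1 in capitals.
MT-CO1: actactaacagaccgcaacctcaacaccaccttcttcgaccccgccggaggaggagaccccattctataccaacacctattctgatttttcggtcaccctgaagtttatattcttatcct
MTCO1P12: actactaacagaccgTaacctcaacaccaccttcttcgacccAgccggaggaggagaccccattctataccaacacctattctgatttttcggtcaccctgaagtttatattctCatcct
MTCO1P24: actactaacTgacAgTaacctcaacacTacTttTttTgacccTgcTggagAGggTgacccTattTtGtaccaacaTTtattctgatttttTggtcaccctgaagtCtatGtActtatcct
MTCO1P12 differs at 3 of these bases and MTCO1P24 at 21. MTCO1P12, which is 98.7% identical over its length, had 132.6 and 104.9 normalized reads in control, 124.4 and 144.0 under TGFB1, 16.1 and 28.9 under celastrol and 39.6 and 34.7 with both. MTCO1P24, 80.0% identical, had 1.25 and 1.20 in control, 2.83 and 3.69 under TGFB1, 241.2 and 295.5 under celastrol, and 285.3 and 320.2 under both. The libraries with celastrol were low for the first copy and high for the second. MTCO1P12 changed by -2.40 (SE 0.30) with celastrol alone and by -1.82 (SE 0.30) on top of TGFB1 (limma adjusted p = 0.0002 and 0.000739). MTCO1P24 passed the filter only through its celastrol libraries, so its direction was fixed and its values are a description.

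Values follow for the other copies named by their mean level. MTATP6P1 (chromosome 1, 98.5% identical to MT-ATP6) had 871.8 and 766.2 normalized reads in control and 127.2 and 95.7 with celastrol, a log2 change of -2.88 (SE 0.32, limma adjusted p = 9.45e-05). MTND2P28 (chromosome 1, 98.4% identical to MT-ND2) changed by -1.42 (SE 0.26, limma adjusted p = 0.00195) with celastrol alone and by -1.79 on top of TGFB1. MTCO1P4 (74.8% identical to MT-CO1) was at 0 in all 4 libraries without celastrol and at 106.8 to 124.7 normalized reads with it, where a count of 0 allows up to 4.24, and it too passed the filter only through the libraries with celastrol. For MT-CO3, the gene with the largest fall, the close copy MTCO3P12 (98.2% identical over 547 bases) has no row in the table used here. It differs from MT-CO3 at 2 of the first 120 bases, in capitals below (chrM:9207-9326 and chr1:634376-634495, + strand).
MT-CO3: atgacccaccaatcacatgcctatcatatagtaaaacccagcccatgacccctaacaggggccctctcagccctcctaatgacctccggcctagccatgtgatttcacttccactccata
MTCO3P12: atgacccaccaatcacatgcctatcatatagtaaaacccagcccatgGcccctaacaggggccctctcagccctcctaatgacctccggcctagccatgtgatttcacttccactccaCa
MT-ND6 has a limit of its own: whether reads were counted by strand is not stated, and without strand, RNA of the heavy strand over the same bases cannot be told from MT-ND6.

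**Figure D5:**
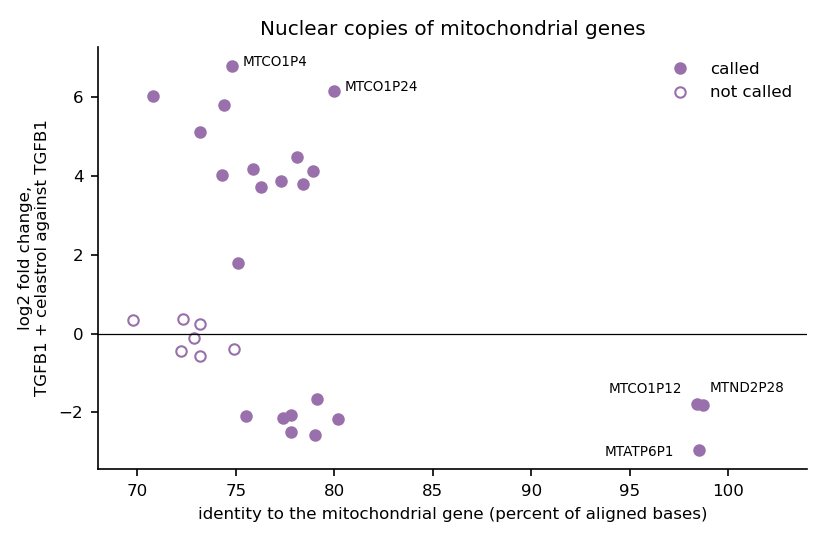
Log2 fold change with celastrol on top of TGFB1 of the 30 tested nuclear copies, against their identity to the mitochondrial gene in percent of aligned bases. Filled points passed a limma adjusted p of 0.05. The 3 copies at 98.4% or more changed by -1.79 to -2.95, and those at 80.2% or below lie on both sides of 0. Copies that lie inside the coding genes JAK2 and DNAJC3 are among the latter.

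Among the nuclear genes that serve mitochondrial transcription, some rose and some fell. Of 16, 5 rose and 7 fell with celastrol on top of TGFB1, where 37.5% of all genes were called higher and 25.9% lower. The median log2 change there was -0.24, beside 0.12 over all genes. With libraries scaled to a common total, 6 rose and 5 fell on top of TGFB1, and with libraries centred at their median, 3 rose and 9 fell. With celastrol alone 4 rose and 8 fell, while 33.8% of all genes were called higher and 21.3% lower. The polymerase POLRMT had 503.3 and 502.7 normalized reads in control, 502.0 and 667.1 under TGFB1, 357.6 and 497.8 under celastrol and 390.9 and 371.6 with both. It fell on top of TGFB1, at -0.60 (SE 0.17, limma adjusted p = 0.0141, lost in 4 of 19 alternatives), and was at -0.25 with celastrol alone (adjusted p = 0.247). TFAM and TFB2M, which bring the polymerase to its promoters, rose with celastrol alone by 0.40 (SE 0.08, limma adjusted p = 0.00221) and 0.78 (SE 0.11, adjusted p = 0.000325). On top of TGFB1 they rose by 0.24 and 0.33, and each lost its call in 6 of 19 alternatives, with TFAM at -0.05 under centring at the median. The elongation factor TEFM changed by -0.57 (SE 0.12, limma adjusted p = 0.00458) with celastrol alone and was at -0.30 (adjusted p = 0.0605) on top of TGFB1. MTERF3, MTERF4 and PPRC1 were called lower in both comparisons. They changed by -0.83, -0.71 and -0.48 with celastrol alone and by -1.21, -0.64 and -0.96 on top of TGFB1. Their limma adjusted p-values lay between 2.32e-05 and 0.00151. PPARGC1A, a coactivator known for driving mitochondrial gene programs, had 12.5 and 8.40 normalized reads in control, 2.83 and 0 under TGFB1, 171.6 and 117.5 under celastrol and 192.8 and 126.6 with both. Only 1 library without celastrol reached 10, so PPARGC1A passed the filter through the celastrol libraries and its direction is no test. GABPB1, a subunit of the nuclear respiratory factor GABP, rose by 1.68 (SE 0.07, adjusted p = 5.31e-07).

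Genes for mitochondrial RNA processing and turnover mostly fell. Of 32, 20 fell in each celastrol comparison, with 2 higher on top of TGFB1 and 3 with celastrol alone. Over all genes 25.9% fell and 37.5% rose on top of TGFB1, and 21.3% and 33.8% did with celastrol alone. The medians were -0.38 and -0.35. The largest change among those named was that of TRNT1, which adds the CCA end to tRNAs, at -1.09 (SE 0.07) with celastrol alone and -1.47 on top of TGFB1 (limma adjusted p = 5.88e-06 and 1.1e-06). MTPAP, the mitochondrial poly(A) polymerase, fell by 0.58 and 0.96 (SE 0.07) on the log2 scale in these comparisons. LRPPRC, which with SLIRP stabilises mitochondrial mRNAs, fell by 0.20 (limma adjusted p = 0.0359, lost in 6 of 19 alternatives) and 0.38 (adjusted p = 0.00119). SLIRP itself was at 0.03 and -0.22, with limma adjusted p-values of 0.775 and 0.0513. FASTKD5, needed to process precursors that lack a tRNA between genes, rose by 0.67 (SE 0.10, adjusted p = 0.000614) with celastrol alone and by 0.41 (adjusted p = 0.00736) on top of TGFB1.

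Of 14 genes that maintain mitochondrial DNA, 4 rose and 6 fell on top of TGFB1, and 2 rose and 6 fell with celastrol alone. Over all genes the shares were 37.5% higher and 25.9% lower, then 33.8% and 21.3%. With libraries scaled to a common total, 6 rose and 5 fell on top of TGFB1, and with libraries centred at their median, 2 rose and 7 fell there and 1 rose and 10 fell with celastrol alone. POLG, the catalytic subunit of the DNA polymerase, had 1626 and 1680 normalized reads in control and 903.6 and 928.9 with celastrol, a log2 change of -0.85 (SE 0.08, limma adjusted p = 3.63e-05). TWNK, the replicative helicase, changed by -1.01 (SE 0.13, limma adjusted p = 0.000224). POLG2, the accessory subunit, rose by 1.00 (SE 0.10, limma adjusted p = 6.69e-05).

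The nuclear partners of the mitochondrial subunits fell in part and by less. Of 73 nuclear genes for complexes I, III, IV and V, 35 fell and none rose on top of TGFB1, and 25 fell and none rose with celastrol alone, where 25.9% and 21.3% of all genes fell. The medians were -0.25 and -0.16, beside -2.17 and -2.19 for the 13 mitochondrial mRNAs. By complex, 16 of 37 for complex I, 6 of 9 for complex III, 6 of 11 for complex IV and 7 of 16 for complex V fell on top of TGFB1. With 1 library left out these ran from 8 to 16, 4 to 6, 3 to 7 and 6 to 8. They were 6, 3, 0 and 2 with libraries scaled to a common total and 33, 9, 11 and 14 when centred at their median, so the order of the complexes is not settled. With celastrol alone, 16 of 37 for complex I, 4 of 9 for complex III, 0 of 11 for complex IV and 5 of 16 for complex V fell. These became 22, 4, 3 and 9 with libraries scaled to a common total and 24, 6, 8 and 13 when centred at their median. The 0 for complex IV thus rests on the scaling. NDUFA10 of complex I, for example, changed by -0.51 (SE 0.07, limma adjusted p = 0.000257) with celastrol alone, and ATP5F1A of complex V by -0.25 (SE 0.06, adjusted p = 0.00734). The 35 became 11 with libraries scaled to a common total and 67 when centred at their median, and 22 to 36 when 1 library was left out, with the lowest counts, 22 and 23, without the second and the first library with both agents. The 25 with celastrol alone became 38 and 51 under these scalings. They became 12 without control replicate 2, 15 without control replicate 1 or celastrol replicate 1, and 17 without celastrol replicate 2. In the celastrol comparisons no mitochondrial mRNA other than MT-ND5 changed its call under these scalings.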

How the data were processed

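TRIzol extracts of total RNA were made into libraries with a VAHTS kit, per the labels' protocols. The submitters' processing notes name Partek 10.0.22, STAR 2.7.3a, DESeq2 and hg38, and neither the roles of these tools nor the annotation, counting rule or use of strand is stated. The authors deposited a table of signal values, normalized by them, for 24598 genes. Per library, 73.8% to 75.9% of the values were a whole number of steps of 1 size, within 0.02 reads. They are therefore taken as estimated reads over a size factor, and no count model was fitted. The step gave depths of 20716706 and 42518350 estimated reads (control), 21161873 and 24602655 (TGFB1), 34879788 and 22615115 (celastrol), and 38583027 and 24406807 (both). A count of 0 allows 3 reads, or 1.8 to 4.24 normalized reads per library, for counting error only.

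A gene was tested if 2 or more libraries reached 10 normalized reads (22866 genes), on log2(value + 1), which understates changes of low genes. In limma 3.58.1 (R 4.3.3) the 8 libraries were fitted with 1 mean per group, a variance trend, two-sided tests and 4 residual degrees of freedom. Adjustment was by Benjamini-Hochberg over all genes within each of 5 comparisons, with calls at 0.05. The fit was also run on simulated counts with equal depths and few changed genes, unlike these data. That run checked how the fit works and is no support for the calls. Groups come from the sample titles; the library called celastrol replicate 2 is numbered 3 in a second label.

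All chromosome M genes are named. Of the nuclear lists, up to 3 genes per direction with the smallest adjusted p on top of TGFB1, with groups that do not overlap and at least 50 normalized reads, could be named. POLRMT, TFAM, TFB2M, TEFM, LRPPRC, SLIRP and PPARGC1A were named whatever their result, and of the nuclear copies the 5 with the highest mean. Not every gene so selected is printed. The genes and lists were chosen with earlier results of these data known. Sequences, coordinates and copies come from GENCODE 29 transcripts (GRCh38); shared parts were searched among annotated nuclear transcripts only. Alternatives covered scaling (common totals, medians, trimmed means of M-values), pseudocount, filter, variance trend, samples in the fit, replicate block and leaving out each library.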

Additional observations from a re-analysis of the deposited data

Results flagged for a closer look

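For 11 of the nuclear genes named by rule, the change with celastrol differed between cells with and without TGFB1 by limma's interaction test, which was called for 11.3% of all genes. Each value is the log2 change with celastrol on top of TGFB1 minus that with celastrol alone, with the limma adjusted p beside it. The lists held other members that were called and are not among the named genes: over all members, 4 of 16 chaperone and protease genes, 5 of 32 of RNA processing, 4 of 14 of DNA maintenance, 1 of 16 of transcription, 2 of 78 ribosomal protein genes and 1 of 73 respiratory subunits were called. All 11 genes but HSPD1 (limma adjusted p = 0.054) were also called with TGFB1 alone, where 23.5% of all genes were. None of the 11 was called with TGFB1 in the presence of celastrol, where 0.00875% of all genes were. The naming rule used the change on top of TGFB1, which is part of the interaction, so it favours genes with such a call.

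The chaperone genes HSPA9 (-0.41, limma adjusted p = 0.00747), HSPD1 (-0.48, limma adjusted p = 0.028) and GRPEL1 (-0.57, limma adjusted p = 0.0058) had lower values on top of TGFB1. HSPA9 and HSPD1 still rose with celastrol in both settings. For genes acting on mitochondrial RNA or its transcription, the difference was -0.38 (limma adjusted p = 0.0495) for MTPAP, -0.38 (limma adjusted p = 0.0455) for TRNT1, -0.48 (limma adjusted p = 0.0373) for PPRC1 and 0.59 (limma adjusted p = 0.0166) for PTCD2. Among genes of DNA maintenance it was -0.42 (limma adjusted p = 0.0357) for ATAD3A and 0.67 (limma adjusted p = 0.0336) for PRIMPOL. It was -0.36 (limma adjusted p = 0.0464) for the ribosomal protein gene MRPL15 and -0.34 (limma adjusted p = 0.0407) for the complex III gene UQCRC1.

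With libraries scaled to a common total, PTCD2 (0.83, limma adjusted p = 0.00401) and PRIMPOL (0.91, limma adjusted p = 0.00936) kept their call, and the other 9 did not, with limma adjusted p-values from 0.0522 for GRPEL1 to 0.469 for UQCRC1. With libraries centred at their median, PRIMPOL (0.55, limma adjusted p = 0.0559) alone of the 11 lost it. Over 18 alternatives, leaving out single libraries included, the call was lost in 2 for GRPEL1, 3 for HSPA9, 5 for PTCD2, and 14 each for MRPL15 and MTPAP, with the other 6 genes between 9 and 12, and no sign changed.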

How the results depend on the processing

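The median log2 change of all genes on top of TGFB1 was 0.12 as deposited, 0.28 with libraries scaled to a common total and -0.17 when centred at their median, and calls split as 8564 higher and 5933 lower, 9809 and 4183, and 6956 and 9094. With celastrol alone they split as 7737 and 4868, 7286 and 6068, and 6751 and 7470, and for TGFB1 as 2937 and 2427, 1417 and 5399, and 4778 and 1775. For TGFB1 alone, both scalings to a common total turned the sign of MT-CO1 (to -0.031), and centring gave 1 call among the 15 genes where the deposited scale gave 0. The fit with the replicate block also gave 1 (MT-CO1). Replicate numbers were not taken to pair the samples. Deviations of same-numbered libraries correlated weakly, at 0.05 to 0.082, and all of these values were above 0. Whether libraries of 1 number share an effect was not tested beyond this. The block changed no other call among the 15. Leaving out 1 library gave 0 to 1 calls for TGFB1, 12 to 14 with celastrol on top of TGFB1 and 12 to 13 with celastrol alone. On top of TGFB1 it moved MT-RNR1 between -3.03 and 0.106 and MT-RNR2 between -2.205 and 0.534; the signs turned without the second library with both agents (0.106 and 0.434) and, for MT-RNR2, without TGFB1 replicate 1 (0.534). The cause of these changes was not tested. Without rRNA rows the chromosome M share was 0.605% in control and 0.127% with celastrol. With 1 library left out, its partner is assumed to vary like the other groups, and the low-value filter applied to the libraries fitted. Groups of 2 limit every standard error.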

Other observations

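Values are given here for a pair of gene groups of the organelle not described above. Of 16 genes for mitochondrial chaperones and proteases, 5 rose and 7 fell on top of TGFB1, and 4 rose and 4 fell with celastrol alone, with medians of -0.15 (0.01 under scaling to a common total) and -0.08. Over all genes, 37.5% rose and 25.9% fell on top of TGFB1, and 33.8% and 21.3% did with celastrol alone, and the chaperone counts with celastrol alone are near these shares. With libraries centred at their median, 3 rose and 10 fell on top of TGFB1, and 4 rose and 9 fell with celastrol alone. In the latter comparison, leaving out any 1 of its 4 libraries left 1 or 2 that fell. HSPD1, the chaperonin HSP60, had 6305 and 5831 normalized reads in control, 7607 and 6780 under TGFB1, 25017 and 26207 under celastrol, and 22855 and 20808 under both. Its partner HSPE1 went from 284.9 and 326.2 in control to 1789 and 2158 with celastrol. HSPA9, the HSP70 of the matrix, went from 6805 and 6720 to 16369 and 16458. All libraries of these 3 genes with celastrol lay above those without. The log2 changes with celastrol alone were 2.08 (SE 0.08) for HSPD1, 2.68 (SE 0.12) for HSPE1 and 1.28 (SE 0.05) for HSPA9, with limma adjusted p-values of 4.42e-07, 8.29e-07 and 4.97e-07. SPG7, a subunit of an inner membrane protease, fell by 0.94 (SE 0.08, limma adjusted p = 2.33e-05).

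Of 78 genes for mitochondrial ribosomal proteins, 38 fell and 3 rose with celastrol alone, and 39 fell and 2 rose on top of TGFB1, with medians of -0.26 and -0.29, beside the same shares of all genes. The 38 became 23 to 25 when any 1 of the control or celastrol libraries was left out, 48 under scaling to a common total and 59 under centring at the median. MRPS25 fell by 0.57 (SE 0.08, limma adjusted p = 0.000259) and MRPL17 by 0.51 (SE 0.09, adjusted p = 0.00115) with celastrol alone. MRPL18 went against the group, from 807.9 and 900.3 normalized reads in control to 2863 and 3368 with celastrol (log2 change 1.86, SE 0.10, limma adjusted p = 2.26e-06), as did MRPL44, at 1.30 (SE 0.09, adjusted p = 1.01e-05). On top of TGFB1 the 39 became 24, with 8 higher, under scaling to a common total and 65 under centring at the median.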
